A study of Homo sapiens with 12 samples.

Results

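Expression of 10 genes is described here across the knockdown of FOXA1 in PC3 and VCaP cells: ESRP1, ESRP2, RBFOX2, QKI, MBNL1, MBNL2, CELF1, RBM47, TRA2A and TRA2B, all regulators of tissue-restricted alternative splicing. They are the 10 rows bearing those gene names among the 60106 genes counted in each library, matched by gene name alone. PC3 and VCaP are established human prostate cancer lines. FOXA1 is a forkhead transcription factor that opens chromatin in luminal prostate cells. Cells of each line received a non-targeting siRNA (NSI) or an siRNA against FOXA1 (siFOXA1) and were harvested 72 h later, with 3 libraries in each of the 4 groups. PC3 cells received 20 nM siRNA in RPMI medium and their libraries came from polyA-selected RNA. VCaP cells received 40 nM in DMEM and their libraries came from a total RNA kit. Line, dose, medium and kit therefore cannot be told apart.

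Regulators of this kind bind short RNA motifs beside alternative exons and promote or block their inclusion, usually according to where they bind. ESRP1 and ESRP2 drive the epithelial isoforms of genes such as FGFR2 and CD44, and RBM47 also acts on epithelial splicing. QKI and RBFOX2 promote many of the isoforms typical of mesenchymal, muscle or neural cells. Muscleblind proteins (MBNL1 and MBNL2) favour adult isoforms in muscle and brain, where CELF1 often acts in the opposite direction, and the SR-like proteins TRA2A and TRA2B bind exonic enhancers.

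Promoter windows are shown for members with a matched promoter whose change differed between the lines or was shared by both. FOXA1 is known to bind forkhead motifs. RefSeq promoters (GRCh38.p14) were matched for 5 of the 10 members: MBNL1, MBNL2, CELF1, RBM47 and TRA2B. The changes of ESRP2 and TRA2A also met the rule, but neither gene had a matched promoter. Each line below gives the 250 bases before a start site, 5′ to 3′ in the direction of transcription. Capitals mark a match, on either strand, to the forkhead motif (TGTTTAC or TGTTTGC) or to the E-box CAGGTG, the letters recognised by ZEB and SNAI repressors. The motifs do not overlap each other in these windows.
MBNL2, chr13:97141584-97141833, plus strand: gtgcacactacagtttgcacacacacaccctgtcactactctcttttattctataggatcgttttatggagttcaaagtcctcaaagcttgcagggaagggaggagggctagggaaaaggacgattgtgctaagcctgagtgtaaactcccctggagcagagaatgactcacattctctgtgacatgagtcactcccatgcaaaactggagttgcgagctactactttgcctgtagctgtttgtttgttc
MBNL2, chr13:97222083-97222332, plus strand: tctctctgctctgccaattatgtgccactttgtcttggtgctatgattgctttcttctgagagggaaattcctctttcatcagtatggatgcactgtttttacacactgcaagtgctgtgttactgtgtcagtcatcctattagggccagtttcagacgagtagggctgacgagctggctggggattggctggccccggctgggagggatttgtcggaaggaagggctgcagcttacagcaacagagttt
RBM47, chr4:40630595-40630844, minus strand: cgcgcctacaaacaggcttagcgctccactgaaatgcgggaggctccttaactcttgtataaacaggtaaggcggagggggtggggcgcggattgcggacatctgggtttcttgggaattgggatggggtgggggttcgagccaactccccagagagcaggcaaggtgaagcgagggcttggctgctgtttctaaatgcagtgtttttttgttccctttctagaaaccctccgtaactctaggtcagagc
RBM47, chr4:40514582-40514831, minus strand: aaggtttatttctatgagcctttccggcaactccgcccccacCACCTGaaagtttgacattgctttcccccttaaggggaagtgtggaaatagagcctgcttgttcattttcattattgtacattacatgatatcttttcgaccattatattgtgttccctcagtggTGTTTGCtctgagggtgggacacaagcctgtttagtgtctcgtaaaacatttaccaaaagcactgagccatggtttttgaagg
TRA2B, chr3:185938015-185938264, minus strand: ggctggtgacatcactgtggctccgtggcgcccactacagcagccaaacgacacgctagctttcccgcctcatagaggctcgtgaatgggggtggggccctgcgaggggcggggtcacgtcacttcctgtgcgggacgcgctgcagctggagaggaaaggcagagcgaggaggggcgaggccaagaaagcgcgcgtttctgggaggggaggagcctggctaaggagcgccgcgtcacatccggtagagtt
Among all 35116 RefSeq promoter windows of this length, 6.09% held the forkhead letters and 17.5% the E-box. Not all 4 RBM47 windows are shown. Of them, 1, shown above, held both a forkhead match and an E-box, and the others held neither motif. Neither MBNL2 window nor the TRA2B window held either motif. MBNL1, with 3 windows, and CELF1, with 5, each had 1 window with a forkhead match, at chr3:152298764-152299013 and chr11:47523832-47524081. These matches describe letters only, since binding was not measured.

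FOXA1 itself checked the labels. Values are CPM, read counts scaled to library size with trimmed means of M values (TMM) within each line. In PC3, FOXA1 stood at 303, 244 and 266 CPM with NSI and at 163, 182 and 162 CPM with siFOXA1. In VCaP it stood at 458, 468 and 544 CPM with NSI and at 85.2, 73.6 and 83 CPM with siFOXA1. The remaining level was 62.3% of NSI in PC3 and 16.5% in VCaP. The knockdown was deeper in VCaP by 1.94 ± 0.15 (SE) on the log2 scale (adjusted p = 2.98e-07).

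The PC3 libraries were deeper (123140099 to 188226483 total counts) than those of VCaP (48187047 to 59839211). The epithelial markers KRT8, KRT18 and EPCAM were present in every group, with a summed level between 357 and 539 CPM. In all, 8 markers of immune, endothelial, fibroblast or muscle cells summed to 50.7 to 51.1 CPM in PC3 with NSI and to 76 to 85 CPM with siFOXA1, nearly all of it CD68 and COL1A1. The defining immune genes PTPRC and CD3E were at most 0.119 CPM in any PC3 library, and the part of this list in the results below was not tested.

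The PC3 libraries numbered 2 stood apart for these genes. In both siRNA groups, replicate 2 was the lowest of 3 for 8 of the 10 members, against 44.4% (NSI) and 41.1% (siFOXA1) of the 12314 genes at 5 CPM or more. With NSI, its ESRP1 level was 52% of the mean of the other 2 libraries, its QKI level 58.6% and its MBNL1 level 67.3%. TRA2A went the other way and was highest in replicate 2 of both groups. The FOXA1 log2 ratio, siFOXA1 over NSI, between same-numbered PC3 libraries was -0.9, -0.42 and -0.72 for replicates 1, 2 and 3. Replicate 2 thus also had the weakest knockdown, and leaving it out keeps only the deeper ones. The part of this in the calls that change was not tested. PC3 results are given below for all 6 libraries and, here or beside the gene, without the 2 libraries numbered 2. Without them, ESRP2 (-1.01, adjusted p = 3.28e-06), TRA2B (-0.42, adjusted p = 0.000893) and TRA2A (-0.22, adjusted p = 0.0147) were still called lower and RBM47 (0.80, adjusted p = 0.000155) higher in PC3. RBFOX2 (-0.07, adjusted p = 0.422) and CELF1 (-0.0023, adjusted p = 0.982) were still not called.

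**Figure D1:**
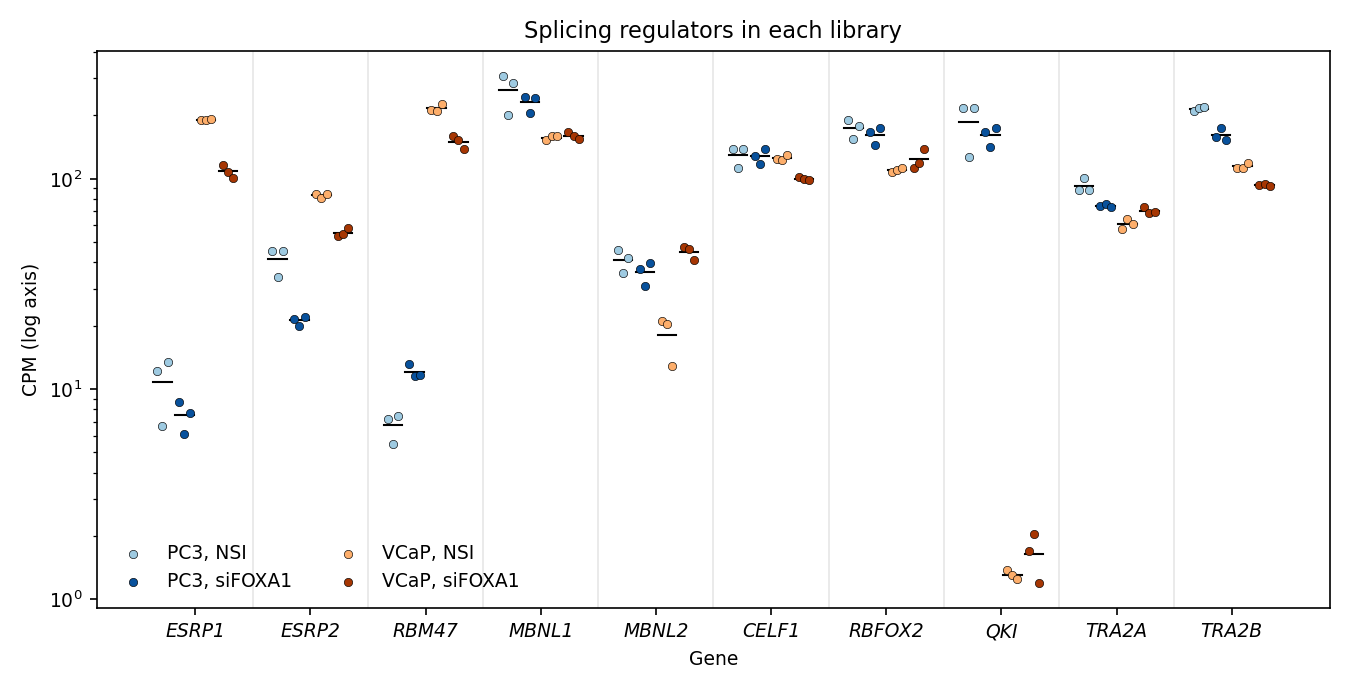
CPM of the 10 members (log axis) in each of the 12 libraries, coloured by line and siRNA. Points are libraries and black lines group means. ESRP1, RBM47 and QKI lie furthest apart between the lines, and MBNL2 in VCaP rises from between 12.9 and 21.1 CPM to between 40.9 and 47.2 CPM.

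At baseline the lines carried different sets of regulators. VCaP held the epithelial regulators at high level: with NSI, RBM47 was 32.1-fold higher than in PC3 (209 to 226 CPM against 5.47 to 7.44 CPM), ESRP1 17.6-fold higher (190 to 193 CPM against 6.68 to 13.5 CPM) and ESRP2 2-fold higher (81.2 to 84.8 CPM against 34 to 45.5 CPM). QKI was the reverse, 144-fold lower in VCaP, at 1.25 to 1.37 CPM against 127 to 218 CPM in PC3. MBNL2 (2.28-fold), TRA2B (1.88-fold), MBNL1 (1.69-fold), RBFOX2 (1.59-fold) and TRA2A (1.52-fold) were also lower in VCaP. CELF1 was alike in its mean, with a log2 difference of -0.05 ± 0.11 (SE; adjusted p = 0.661). A gene was called where its p-value, adjusted over all genes tested, was under 0.05. By that rule 9 of the 10 members differed between the lines, and so did 87% of all 28170 genes tested, a share near that of the members. Of the members, 3 were higher in VCaP (42.4% of all genes) and 6 lower (44.6%). The ranges of the 2 groups did not overlap for 9 members, against 88.7% of all genes. The sign for CELF1 turned with the scaling: upper-quartile scaling put it higher in VCaP by 0.24 (adjusted p = 0.042), while it moved the median of all genes from -0.07 to 0.22. The lines also differ in kit, dose, medium and strand setting.

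Levels of different genes were compared per kilobase of annotated exon. In PC3 with NSI, TRA2B led at 70.6 ± 1.63 CPM per kb (SD, n = 3). TRA2A (41.4 ± 3.23 CPM per kb) and MBNL1 (39.6 ± 8.52 CPM per kb) followed with overlapping ranges. RBFOX2 came next at 24.1 ± 2.63 CPM per kb. CELF1, QKI and ESRP2 had means between 10.8 and 14.5 CPM per kb, each overlapping its neighbour, and ESRP2 also overlapped MBNL2 (8.48 ± 1.06 CPM per kb). ESRP1 (2.79 ± 0.933 CPM per kb) and RBM47 (1.19 ± 0.192 CPM per kb) were last and separate. In VCaP with NSI, ESRP1 was first at 49.4 ± 0.384 CPM per kb, ahead of RBM47 (38.3 ± 1.55 CPM per kb) and TRA2B (37.5 ± 1.2 CPM per kb), whose ranges overlapped. QKI was last at 0.0825 ± 0.00371 CPM per kb. Of the epithelial regulators, ESRP1 and RBM47 thus had the 2 lowest means in PC3 with NSI and the 2 highest in VCaP with NSI. ESRP2 did not share this reversal and was 7th in PC3 and 6th in VCaP.

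Of the epithelial splicing regulators, ESRP2 fell after FOXA1 knockdown in both lines and ESRP1 in VCaP. ESRP2 (GRCh37 chr16:68263014-68270487, minus strand) stood at 45.4, 34 and 45.5 CPM in PC3 with NSI and at 21.6, 20 and 22.1 CPM with siFOXA1. All 3 knockdown libraries lay below all 3 controls, and ESRP2 fell 1.96-fold (log2 change -0.97 ± 0.12 SE, adjusted p = 0.000904). In VCaP, ESRP2 stood at 84.8, 81.2 and 84.4 CPM with NSI and at 53.4, 54.7 and 58.2 CPM with siFOXA1. The groups did not overlap, and ESRP2 fell 1.51-fold (log2 change -0.59 ± 0.06, adjusted p = 3.8e-05).

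ESRP1 (chr8:95653302-95719694, plus strand) stood at 190, 191 and 193 CPM in VCaP with NSI and at 116, 108 and 101 CPM with siFOXA1. Every knockdown library was well below the controls, and ESRP1 fell 1.76-fold there (log2 change -0.81 ± 0.07, adjusted p = 1.32e-05). In PC3 it stood at 12.2, 6.68 and 13.5 CPM with NSI and at 8.68, 6.1 and 7.68 CPM with siFOXA1. The groups overlapped because replicate 2 of NSI was low, and the log2 change of -0.53 ± 0.25 missed the threshold (adjusted p = 0.143). Same-numbered PC3 libraries deviated together, and with the replicate number as a block ESRP1 was called at -0.49 (adjusted p = 0.0106). It was also called without both libraries numbered 2 (-0.60, adjusted p = 0.001) and without NSI replicate 2 alone (-0.73, adjusted p = 0.00802). In 12 of 16 alternatives it was not called, with values down to -0.34 (adjusted p = 0.392) without NSI replicate 3. Summed per kilobase, ESRP1 and ESRP2 together went from 13.6 ± 2.64 to 7.47 ± 0.604 CPM per kb in PC3 and from 71.1 ± 0.675 to 42.5 ± 1.32 CPM per kb in VCaP (SD, n = 3).

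RBM47, an RNA-binding protein of epithelia, moved in opposite directions in the lines. RBM47 (chr4:40425284-40632640, minus strand) stood at 7.23, 5.47 and 7.44 CPM in PC3 with NSI and at 13.1, 11.5 and 11.6 CPM with siFOXA1. The knockdown libraries were all higher, and RBM47 rose 1.79-fold (log2 change 0.84 ± 0.14, adjusted p = 0.00267). In VCaP it stood at 213, 209 and 226 CPM with NSI and at 159, 153 and 138 CPM with siFOXA1. Here every knockdown library was lower, and RBM47 fell 1.44-fold (log2 change -0.53 ± 0.07, adjusted p = 0.000329). The VCaP effect minus the PC3 effect was -1.38 ± 0.16 on the log2 scale (adjusted p = 1.23e-05). Even after its rise, the PC3 level stayed far below that in VCaP: the highest PC3 library had 13.1 CPM and the lowest VCaP library 138 CPM.

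MBNL2, a muscleblind protein of brain and muscle, showed the largest rise among the members. MBNL2 (chr13:97873688-98046374, plus strand) stood at 21.1, 20.4 and 12.9 CPM in VCaP with NSI and at 47.2, 46.5 and 40.9 CPM with siFOXA1. The lowest knockdown library was far above the highest control, and MBNL2 rose 2.48-fold (log2 change 1.31 ± 0.16, adjusted p = 0.000148). In PC3 the values were 45.9, 35.7 and 41.9 CPM with NSI and 37.1, 30.8 and 39.9 CPM with siFOXA1. Those groups overlapped, and the log2 change of -0.20 ± 0.13 was not called (adjusted p = 0.28). Each PC3 knockdown library was below the control of its number, and with the replicate block MBNL2 was called at -0.20 (adjusted p = 0.0389). The other 15 of 16 alternatives made no call: the value was -0.14 (adjusted p = 0.132) without both libraries numbered 2, -0.09 (adjusted p = 0.651) without NSI replicate 1 and -0.10 without siFOXA1 replicate 2 (adjusted p = 0.589). The effect in VCaP exceeded that in PC3 by 1.49 ± 0.22 (log2, adjusted p = 0.000158).

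MBNL1 (chr3:151985829-152183569, plus strand) did not follow the rise of its paralog in VCaP. In VCaP it stood at 153, 159 and 159 CPM with NSI and at 166, 160 and 155 CPM with siFOXA1, overlapping groups with a log2 difference of 0.03 ± 0.06 (adjusted p = 0.708). In PC3 it stood at 308, 200 and 287 CPM with NSI and at 245, 205 and 243 CPM with siFOXA1, a log2 difference of -0.20 ± 0.16 (adjusted p = 0.385). Without both PC3 libraries numbered 2, MBNL1 was called at -0.24 (adjusted p = 0.0179), and without NSI replicate 2 alone at -0.32 (adjusted p = 0.0438). In the other 14 of 16 alternatives it was not called, and it shrank to -0.06 (adjusted p = 0.825) without NSI replicate 1 and to -0.12 (adjusted p = 0.648) without siFOXA1 replicate 2. Antisense genes cover 16.1% of the exon bases of MBNL1, and the PC3 counts ignored strand, so reads of the antisense genes and of MBNL1 cannot be told apart there.

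CELF1, which often opposes muscleblind proteins at shared exons, fell in VCaP. CELF1 (chr11:47487485-47574669, minus strand) stood at 124, 123 and 130 CPM with NSI and at 102, 100 and 98.2 CPM with siFOXA1 in that line. The groups were separate, and CELF1 fell 1.25-fold (log2 change -0.33 ± 0.06, adjusted p = 0.00146). In PC3 it stood at 139, 113 and 138 CPM with NSI and at 129, 118 and 138 CPM with siFOXA1. These values overlapped fully, with a log2 difference of -0.02 ± 0.11 (adjusted p = 0.924) whose sign turned in 9 of 16 alternative analyses. The difference between lines, -0.33 ± 0.14, missed the threshold (adjusted p = 0.103) and passed it with the replicate block (adjusted p = 0.0139) and without both PC3 libraries numbered 2 (-0.36, adjusted p = 0.00928). In all it was called in 5 of 21 alternatives.

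QKI and RBFOX2, regulators of mesenchymal and neural splicing programs, were not called in either line. QKI (chr6:163835675-163999628, plus strand) stood at 216, 127 and 218 CPM in PC3 with NSI and at 167, 142 and 174 CPM with siFOXA1. The groups overlapped through replicate 2 of NSI, and the log2 difference was -0.21 ± 0.19 (adjusted p = 0.446). Without both PC3 libraries numbered 2, QKI was called lower at -0.30 (adjusted p = 0.00508), and without NSI replicate 2 alone at -0.38 (adjusted p = 0.0231). In the other 14 of 16 alternatives QKI was not called, and it shrank to -0.07 (adjusted p = 0.817) without NSI replicate 1, to -0.09 (adjusted p = 0.798) without NSI replicate 3 and to -0.13 (adjusted p = 0.689) without siFOXA1 replicate 2. In VCaP, QKI stood at 1.37, 1.3 and 1.25 CPM with NSI and at 1.69, 2.05 and 1.2 CPM with siFOXA1. The lowest of these 6 values was a knockdown library, and the log2 difference of 0.33 ± 0.20 was not called (adjusted p = 0.201). QKI was called at 0.52 (adjusted p = 0.0324) without that library, siFOXA1 replicate 3, but in none of the other 14 alternatives, and it shrank to 0.15 (adjusted p = 0.612) without siFOXA1 replicate 2.

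RBFOX2 (chr22:36134783-36424473, minus strand) stood at 191, 154 and 179 CPM in PC3 with NSI and at 166, 145 and 175 CPM with siFOXA1. The ranges overlapped, with a log2 difference of -0.11 ± 0.11 (adjusted p = 0.499). In VCaP it stood at 108, 110 and 112 CPM with NSI and at 113, 119 and 139 CPM with siFOXA1. Every knockdown library was above every control, narrowly so at the nearest pair of libraries, and the log2 difference of 0.17 ± 0.08 missed the threshold (adjusted p = 0.121).

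The SR-like paralogs TRA2A and TRA2B fell together in PC3 and went opposite ways in VCaP. TRA2B (chr3:185633694-185655924, minus strand) stood at 210, 217 and 219 CPM in PC3 with NSI and at 158, 175 and 153 CPM with siFOXA1. It fell 1.33-fold, with no overlap (log2 change -0.41 ± 0.09, adjusted p = 0.0085), though the call was lost without siFOXA1 replicate 1 (-0.37, adjusted p = 0.0695). In VCaP it stood at 112, 113 and 119 CPM with NSI and at 93.9, 94 and 92.7 CPM with siFOXA1. The knockdown libraries were all lower, and TRA2B fell 1.22-fold (log2 change -0.29 ± 0.06, adjusted p = 0.00225).

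TRA2A (chr7:23544399-23571660, minus strand) stood at 88.4, 101 and 88.6 CPM in PC3 with NSI and at 73.8, 75.7 and 73 CPM with siFOXA1. It fell 1.25-fold in PC3 (log2 change -0.32 ± 0.09, adjusted p = 0.0254). In VCaP it stood at 57.9, 64.7 and 60.6 CPM with NSI and at 73.2, 69.1 and 69.6 CPM with siFOXA1. There the knockdown libraries were all higher, and TRA2A rose 1.16-fold (log2 change 0.21 ± 0.06, adjusted p = 0.0198). Both calls for TRA2A were marginal. In PC3 the call was lost with upper-quartile scaling (adjusted p = 0.0556), with library size alone (0.0902) and on leaving out any single library but siFOXA1 replicate 2 (0.0575 to 0.149). The VCaP call was lost with DESeq2 (adjusted p = 0.0525), with library size alone (0.0709), without NSI replicate 1 (0.112) and without siFOXA1 replicate 1 (0.0906). The difference between the lines, 0.52 ± 0.11 (log2, adjusted p = 0.00359), was called in all 21 alternatives run, with values from 0.39 to 0.55.

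**Figure D2:**
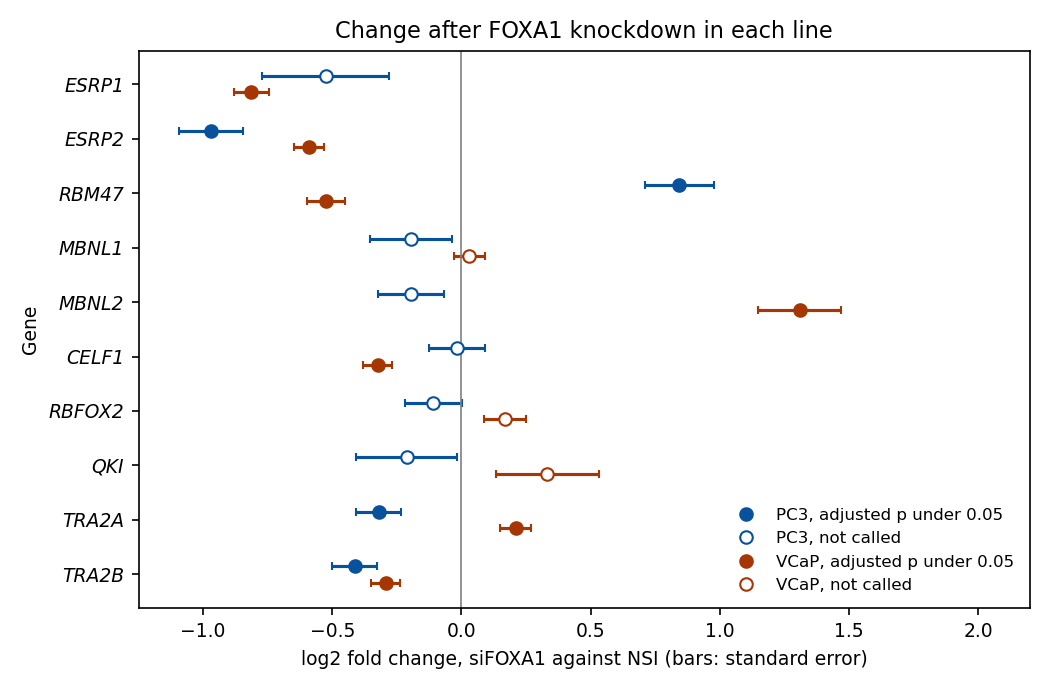
Log2 fold change of each member, siFOXA1 against NSI, in PC3 and VCaP, with standard errors as bars and filled points for an adjusted p under 0.05. ESRP2 and TRA2B are filled and below 0 in both lines, while RBM47 and TRA2A are filled on opposite sides of 0.

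Counted over the 10 members, all of which passed the filter on low counts in both lines, 1 rose and 3 fell in PC3. Over all 26478 genes tested there, 27.7% were called, 13.9% higher and 13.9% lower. The median log2 difference was -0.20 (range -0.97 to 0.84) for the members and -0.01 for all genes. With the replicate block, 1 member rose and 5 fell, and 11333 genes (42.8%) in place of 7344 were called. Without both libraries numbered 2, 1 member rose and 6 fell, where 38.2% of all genes were called. Under library size alone, 64.3% of PC3 calls were higher, against 50% with TMM.

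In VCaP, 2 members rose and 5 fell, where 45.8% of 22939 genes were called (22.5% higher and 23.3% lower). The median log2 difference was -0.13 (range -0.81 to 1.31) for the members and 0.02 for all genes. The groups did not overlap for 4 members in PC3, against 45.1% of all genes, and for 8 in VCaP, against 55.9%. ESRP2 and TRA2B were called lower in both lines, as were 6.48% of the 19282 genes tested in both. RBM47 and TRA2A were called in opposite directions, as were 5.09% of those genes. No member was called higher in both lines, where 4.57% of genes were.

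The effect differed between the lines for 3 members (MBNL2, RBM47 and TRA2A), against 22.1% of the 30450 genes in that test. ESRP2 fell by more in PC3, and the difference of 0.36 ± 0.15 (log2) missed the threshold (adjusted p = 0.093). It was called with the replicate block (adjusted p = 0.0144), without both PC3 libraries numbered 2 (adjusted p = 0.00593) and without PC3 NSI replicate 2 alone (adjusted p = 0.00925). In the other 18 of 21 alternatives it was not called, and it shrank to 0.23 (adjusted p = 0.362) without PC3 NSI replicate 3 and to 0.24 (adjusted p = 0.316) without PC3 siFOXA1 replicate 2. The QKI difference, 0.53 ± 0.31 (adjusted p = 0.263), was called in 2 of 21 alternatives: without PC3 NSI replicate 2 at 0.70 (adjusted p = 0.0348) and without both PC3 libraries numbered 2 at 0.59 (adjusted p = 0.0369). It was as low as 0.34 (adjusted p = 0.556) without VCaP siFOXA1 replicate 2. The number of members called was 5 with the block (29% of all genes), 6 without both PC3 libraries numbered 2 (27.5%) and 5 without PC3 NSI replicate 2 (24.9%). The FOXA1 level left after knockdown also differed between the lines, and its part in these differences was not tested.

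**Figure D3:**
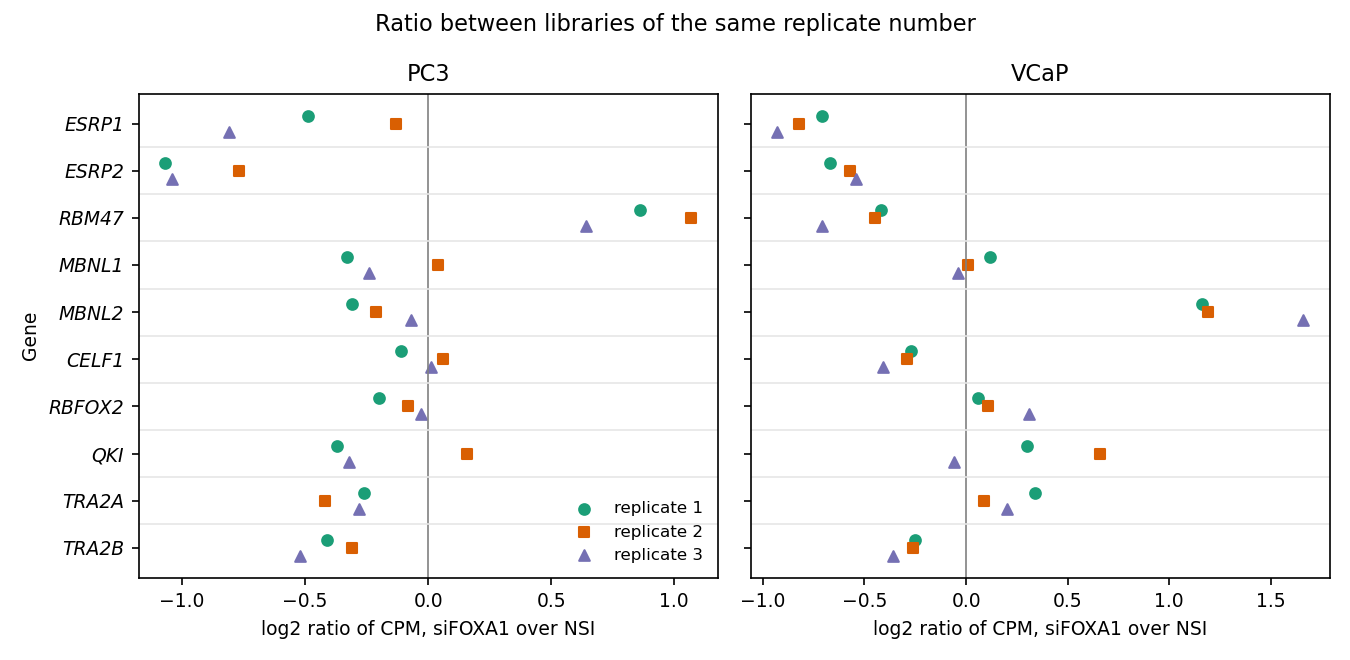
Log2 ratio of CPM, siFOXA1 over NSI, between libraries with the same replicate number, for each member in PC3 (left) and VCaP (right). In PC3 the replicate 2 ratio is the one above 0 for QKI (0.16) and MBNL1 (0.04), while in VCaP all 3 MBNL2 ratios exceed 1.

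Ratios between same-numbered libraries are given as a description. Where the 2 groups do not overlap, 3 of 3 ratios must share a direction. The share of all genes with 3 of 3 was not computed. In PC3, ESRP1, ESRP2, RBFOX2, MBNL2, TRA2A and TRA2B were lower in 3 of 3 pairs, and RBM47 was higher in 3 of 3. ESRP1 ranged most widely, from -0.81 to -0.13 on the log2 scale. In VCaP, ESRP1, ESRP2, CELF1, RBM47 and TRA2B were lower in 3 of 3, and MBNL2, RBFOX2 and TRA2A higher in 3 of 3. These are the 8 members whose groups did not overlap there, so the ratios add nothing for them. In VCaP, only library 3 of each group correlated best with its own number, so these pairs are largely arbitrary. QKI and MBNL1 were mixed in both lines.

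Balance within paralog pairs was computed from counts per kilobase. In VCaP, MBNL1 made up 86.3% ± 3.18 of MBNL1 and MBNL2 with NSI and 72.2% ± 1.02 with siFOXA1 (SD, n = 3), a loss of share that came with the rise of MBNL2. TRA2A went from 42.1% ± 1.55 to 50.7% ± 0.752 of the TRA2 pair in VCaP, so that it slightly exceeded TRA2B per kilobase in all 3 knockdown libraries. Without scaling by length, the mean TRA2A share went from 34.8% to 43%, and TRA2B kept the larger share. ESRP1 went from 69.4% ± 0.526 to 66% ± 2.52 of the ESRP pair in VCaP and from 20% ± 3.32 to 25.8% ± 2.6 in PC3. Over single omissions this change ran from -4.64 to -2.13 percentage points in VCaP and from 3.89 to 7.09 in PC3. In each of these 4 comparisons the groups did not overlap, and the two-sided exact permutation test gave p = 0.1, the smallest that 3 against 3 libraries allow. In PC3, the MBNL1 share was 82.1% ± 1.64 and 82.4% ± 0.709 (exact permutation p = 1), and the TRA2A share 36.9% ± 1.7 and 38.5% ± 1.24 (exact permutation p = 0.2). ESRP2 was the larger ESRP partner in all 6 PC3 libraries and ESRP1 in all 6 VCaP libraries.

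**Figure D4:**
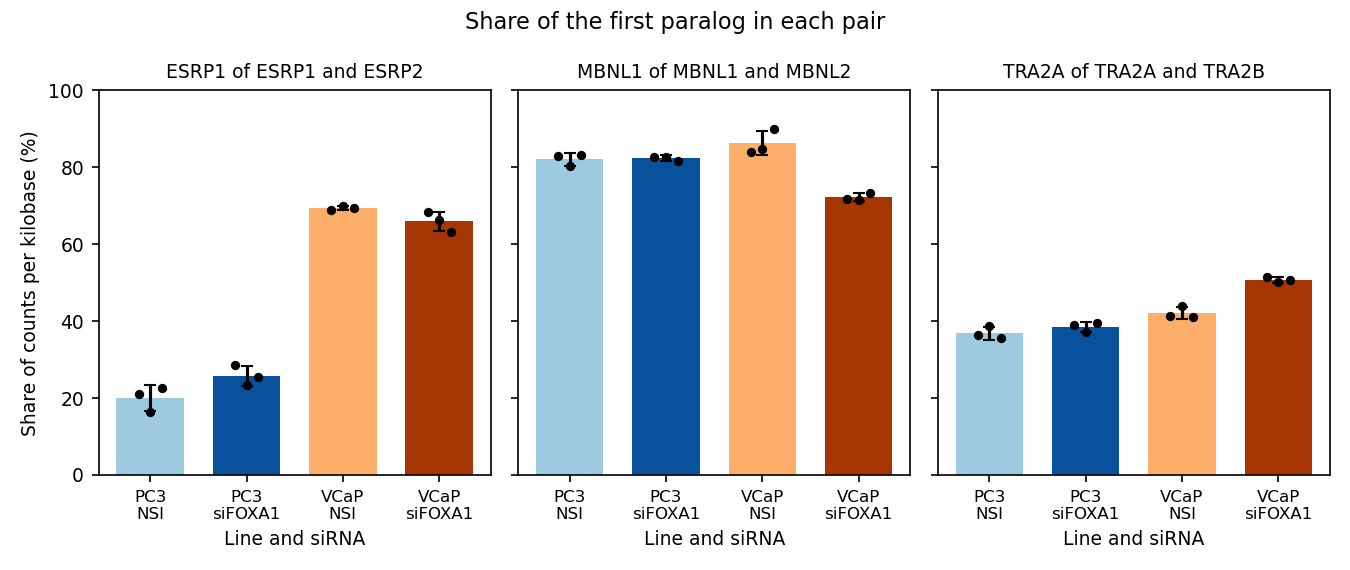
Share of counts per kilobase taken by ESRP1, MBNL1 or TRA2A within its paralog pair, by line and siRNA. Bars are means, error bars SD and points the 3 libraries. The MBNL1 share in VCaP drops from 86.3% to 72.2%, and the ESRP1 share lies near 20% in PC3 and near 69% in VCaP.

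The order of levels changed after knockdown in both lines. In VCaP, TRA2A (31.6 ± 1.01 CPM per kb) and TRA2B (30.6 ± 0.231 CPM per kb) came first. ESRP1, first with NSI, took the third place at 28.1 ± 1.92 CPM per kb, with a range overlapping that of RBM47 (26.6 ± 1.95 CPM per kb). MBNL2 reached 9.25 ± 0.709 CPM per kb and kept the ninth place, below CELF1 at 11.2 ± 0.233 CPM per kb. In PC3, ESRP2 went from the seventh place to the eighth (5.54 ± 0.298 CPM per kb), below MBNL2 (7.4 ± 0.951 CPM per kb), and RBM47 (2.14 ± 0.158 CPM per kb) reached the range of ESRP1 (1.94 ± 0.336 CPM per kb).

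Other tissue-restricted splicing regulators formed a list of 32 genes. In PC3, 17 of the 26 tested were not called, 7 fell and 2 rose, against 27.7% of all genes called. The rises were the CELF1 paralog CELF2 (log2 change 1.45, adjusted p = 0.00799) from at most 0.325 CPM and ELAVL2 (0.36, adjusted p = 0.0187). The ELAVL2 call was lost without NSI replicate 3 (adjusted p = 0.0647), without siFOXA1 replicate 1 (0.0707) and without siFOXA1 replicate 3 (0.0538). The fall was clearest for the neuronal PTB paralog PTBP2 (-0.76, adjusted p = 0.00149), the muscle regulator RBM24 (-0.87, adjusted p = 0.0041) and the RNA-stabilising protein ELAVL1 (-0.43, adjusted p = 0.00492). In VCaP, 10 of 27 rose, 8 fell and 9 were not called, against 45.8% of all genes called. RBM24 rose from 0.886, 1.08 and 0.956 CPM to 7.26, 7.61 and 10 CPM (log2 change 3.09 ± 0.16, adjusted p = 9.92e-07), the opposite of its direction in PC3. Its effect differed between the lines by 3.95 ± 0.23 (adjusted p = 2.25e-08). CELF6 (1.96, adjusted p = 1.01e-05) and RBM20 (1.58, adjusted p = 0.00024), at most 0.717 CPM with NSI, also rose. The splicing repressor PTBP1 (-0.48, adjusted p = 0.000447), TIAL1 (-0.25, adjusted p = 0.00374) and the neuronal activator SRRM4 (-0.55, adjusted p = 0.00398) fell. The SRRM4 call was lost in the fit of all 12 libraries (adjusted p = 0.0976). The list's median log2 difference was -0.21 in PC3 and 0.06 in VCaP, against -0.01 and 0.02 for all genes.

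Direct paralogs of the members were followed too. MBNL3, the third muscleblind gene, stood at 33.5, 31 and 31.6 CPM in VCaP with NSI and at 42.5, 39.3 and 39.4 CPM with siFOXA1. All knockdown libraries were higher, and MBNL3 rose by a log2 change of 0.33 ± 0.06 (adjusted p = 0.00149), a call lost in the fit of all 12 libraries (0.36, adjusted p = 0.0558). The 3 muscleblind genes summed to 29.9 ± 0.741 CPM per kb with NSI and to 36.6 ± 1.57 CPM per kb with siFOXA1 in VCaP, and to 48.2 ± 9.58 and 42.1 ± 4.3 CPM per kb in PC3. In PC3, MBNL3 lay between 1.66 and 2.62 CPM and was not called (log2 difference 0.11, adjusted p = 0.704). RBFOX3 lay between 0.248 and 0.41 CPM in PC3 (log2 difference -0.05, adjusted p = 0.911), and RBFOX1 had at most 8 counts summed over the libraries of a group. PTBP1, given for context and not a paralog of any member, also fell in PC3 (-0.35, adjusted p = 0.0195). Scaling by library size alone removed the call (adjusted p = 0.0533). So did leaving out replicate 1 (0.0622) or 3 (0.0836) of NSI, or replicate 1 (0.0917) or 3 (0.0821) of siFOXA1.

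Transcription factors of the epithelial state, some of which act on ESRP1, formed another list of 12 genes. In PC3, 2 of 11 tested rose, where 13.9% of all genes did, the repressors ZEB1 (log2 change 0.62, adjusted p = 0.0207) and ZEB2 (0.98, adjusted p = 0.000511), both known to repress ESRP1. The ZEB1 call was lost without NSI replicate 3 (adjusted p = 0.0525), without siFOXA1 replicate 1 (0.0576) and without siFOXA1 replicate 3 (0.066). ZEB2 stood at 2.39, 2.28 and 2.58 CPM with NSI and at 4.81, 4.6 and 4.85 CPM with siFOXA1. Another 6 fell, where 13.9% of all genes did, with adjusted p from 0.000591 to 0.0278. They were GRHL1 (-0.95), ELF3 (-0.73), KLF5 (-0.66), KLF4 (-0.60), SNAI2 (-0.49) and SNAI1 (-0.48). SNAI1 lost its call in 6 of 16 alternatives: with upper-quartile scaling (adjusted p = 0.053), with library size alone (0.0595) and on leaving out replicate 1 (0.0775) or 3 (0.0948) of NSI, or replicate 1 (0.155) or 2 (0.0704) of siFOXA1. GRHL2 (0.72, adjusted p = 0.147), OVOL2 (-0.29, adjusted p = 0.584) and TWIST1 (0.18, adjusted p = 0.34) were not called in PC3. There GRHL2 was at most 0.347 CPM and OVOL2 at most 0.108 CPM in any library. GRHL2 was called in the fit of all 12 libraries (0.78, adjusted p = 0.0238) and, with TWIST1 (0.25, adjusted p = 0.0301), without both libraries numbered 2 (1.16, adjusted p = 0.0357), and GRHL2 also without NSI replicate 2 alone (1.07, adjusted p = 0.047). In VCaP, ZEB1 and ZEB2 were too low to test, with no library above 0.139 CPM. Of the 9 tested there, 3 rose and 3 fell, where 22.5% of all genes rose and 23.3% fell. KLF4 (1.37, adjusted p = 0.000147), SNAI2 (3.39, adjusted p = 0.000617, from at most 0.0598 CPM) and OVOL1 (0.71, adjusted p = 7.94e-05) rose. The ESRP1 activator GRHL2 (-0.59, adjusted p = 0.000328), KLF5 (-0.72, adjusted p = 0.00529) and OVOL2 (-0.57, adjusted p = 0.001) fell. ELF3 (0.18, adjusted p = 0.104), GRHL1 (0.10, adjusted p = 0.238) and SNAI1 (0.34, adjusted p = 0.339) were not called in VCaP, though ELF3 was without siFOXA1 replicate 3 (0.26, adjusted p = 0.0162). The list's median log2 difference was -0.48 in PC3 and 0.18 in VCaP, against -0.01 and 0.02 for all genes. What these factors contribute to the members' changes was not tested.

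Genes whose exons these regulators are known to switch were measured only as gene totals, which do not show isoforms. Of 15 such genes tested in PC3, 1 rose and 1 fell, where 27.7% of all genes were called. Of 16 in VCaP, 8 rose and 3 fell, where 22.5% of all genes rose and 23.3% fell. The list's median log2 difference was 0.04 in PC3 and 0.19 in VCaP, against -0.01 and 0.02 for all genes. CD44, an ESRP target named here after its values were seen, stood at 4.93, 4.96 and 6.22 CPM in VCaP with NSI and at 23.3, 23.6 and 24.8 CPM with siFOXA1 (log2 change 2.15 ± 0.10, adjusted p = 5.22e-07). In PC3, CD44 was already between 338 and 424 CPM and was not called (0.20, adjusted p = 0.129). FGFR2, the other ESRP target named above, went the other way in VCaP. It lay between 2.31 and 3.07 CPM there with NSI and between 1.6 and 1.89 CPM with siFOXA1. In PC3, FGFR2 was at most 0.0407 CPM.

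Genes most alike to each member over the 12 libraries were ranked by the root mean square difference of log2 CPM after centring, among 12917 genes. TRA2B lay closest to EIF3B, a translation initiation subunit (0.0614), followed by the splicing factor RNPS1 (0.067). CELF1 was closest to RAB10 (0.0561), RBFOX2 to PALB2 (0.0474), MBNL1 to TGOLN2 (0.0667), TRA2A to CNBP (0.0642) and ESRP2 to FRK (0.145). The members that differed most between the lines had more distant neighbours: PPM1E for ESRP1 (0.173), SH3RF1 for RBM47 (0.205) and PLIN4 for QKI (0.267). MBNL2 was nearest to DISP1 (0.164). The 12 libraries fall into 2 lines with different kits, which all of these values share.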

How the data were processed

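RNA-seq was analysed from 12 libraries, 3 per group. Per the file headers, the authors made the deposited expected counts with featureCounts by summing exons per gene of GENCODE v28lift37 on GRCh37. Counting required both mates to map and split multi-mapping or multi-overlapping fragments into fractions. Strand was ignored in PC3 and reverse in VCaP, per the file headers. STAR 2.7.3a and Subread 2.0.0 are named in the submitters' processing notes. The deposited exon length (another column) gave values per kilobase. Between 54.8% and 75.2% of nonzero counts in a library were not whole.

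Counts were rounded to the nearest whole number (0.5 upwards). edgeR 4.0.16 in R 4.3.3 was fitted with TMM factors, filterByExpr and two-sided quasi-likelihood tests, on 6 libraries for each line's siFOXA1 effect, on 12 for the difference of effects and on the 6 NSI libraries for levels. P-values were adjusted by Benjamini-Hochberg over all genes tested, with a call under 0.05. SE is the log2 change divided by the square root of F. Biological variation between replicates (coefficient from edgeR) was 14.9% for PC3, 9.89% for VCaP, 12.8% over all libraries and 13.5% for NSI. The fits were tested on simulated data, with counts drawn independently for each library. That test cannot show how the PC3 fits behave where libraries of the same number deviate together.

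PC3 libraries of the same number deviated together (correlations 0.445, 0.589 and 0.251 at genes with 1 CPM or more, all above 0.1). Libraries 1 and 3 also did so across numbers: NSI 1 with siFOXA1 3 at 0.346 and NSI 3 with siFOXA1 1 at 0.237. Library 3 of siFOXA1 thus correlated better with NSI 1 than with its own number. The main tests took no account of the pairing, which entered the replicate block and the ratios of same-numbered libraries. This pairing comes from the data and the shared numbers in the titles. No label says that replicates were separate cultures, so p-values measure the spread between these samples, which may be technical. No pair of replicates agreed within sampling noise. No label gives a batch.

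All members are named, with FOXA1, the listed transcription factors, direct paralogs and PTBP1. The 3 rising and 3 falling other splicing regulators of smallest adjusted p are named too. Members and lists were chosen with earlier results of these data known. Alternatives were DESeq2 1.42.0 and its size factors, upper-quartile scaling, library size alone, no filter, protein-coding genes, a replicate block, all 12 libraries and leaving out each library. Rounding 0.5 to even numbers and leaving out both PC3 libraries numbered 2 were added after seeing the data.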

Additional observations from a re-analysis of the deposited data

Results flagged for a closer look

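Effects that differed between the 2 lines by the interaction test over 12 libraries are collected here for the members, FOXA1 and RBM24. Each is the VCaP effect of siFOXA1 minus the PC3 effect on the log2 scale. RBM47 gave -1.38, since it rose in PC3 and fell in VCaP. MBNL2 gave 1.49, since it rose in VCaP and was not called in PC3 without the block. TRA2A gave 0.52, with a fall in PC3 and a rise in VCaP. FOXA1, the siRNA target, gave -1.94. RBM24 gave 3.95 and was 1 of 8 genes called among the 29 other splicing regulators tested. Of the 12 transcription factors of the epithelial state, 4 were called higher and 1 lower by this test, such as KLF4 (1.96) and GRHL2 (-1.35). Over all genes, 22.1% were called by it. In PC3, GRHL2 was at most 0.347 CPM in any library, and its change there was not called in the main test. Kit, dose, medium and strand setting differ between the lines together with the cells, and their parts in these differences cannot be told apart. Groups of 3 libraries were too small for a test of outlying samples.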

How the results depend on the processing

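Among the members, 134 of 160 alternative values in PC3, 144 of 150 in VCaP, 200 of 210 for the difference of effects and 135 of 140 for NSI levels kept both direction and side of the threshold. The PC3 calls were the least stable: leaving out single libraries gave 3963 to 7628 genes called and 2 to 6 members called. The fewest came without siFOXA1 replicate 1 (3963 genes, 2 members), and 4738 genes were called without NSI replicate 3. Leaving out both PC3 libraries numbered 2 gave 10246 genes and 7 members called in PC3, and 6 members for the difference of effects. For that difference, single omissions gave 3 to 5 members. With protein-coding genes only, 14073 genes differed in NSI level in place of 24517, because fewer genes were tested.

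With the replicate block, 11333 PC3 genes were called and 5 members had a difference of effects. In VCaP the numbers are only shared (correlations 0.109, 0.034 and 0.391, with only library 3 of each group correlating best with its own number), and the block left the 2 higher and 5 lower member calls in number. The block changed no other member call than those given for ESRP1, MBNL2, ESRP2 and CELF1.

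Direction turned for values near 0, and the cause was not tested. For CELF1 in PC3 the log2 difference became 0.0458 (upper quartile), 0.0753 (library size alone), 0.0173 (0.5 rounded to even), 0.0253 (protein-coding genes), and 0.027 (all 12 libraries). Leaving out single PC3 libraries gave -0.0704 to 0.0554: it was above 0 without NSI replicate 1 (0.0554), without NSI replicate 3 (0.022), without siFOXA1 replicate 1 (0.0102) and without siFOXA1 replicate 2 (0.0427). For CELF1 in NSI level it became 0.0203 (DESeq2 size factors), 0.241 (upper quartile), 0.0033 (library size alone), 0.1659 (protein-coding genes) and 1e-04 (without PC3 NSI replicate 3, in a range of -0.1531 to 1e-04 over single omissions). MBNL1 in VCaP ranged from -0.0038 (without NSI replicate 1) to 0.0533. In PC3, RBFOX3 became 0.0124 (upper quartile), 0.0407 (library size alone), 0.1221 (without both libraries numbered 2), 0.0893 (without siFOXA1 replicate 3) and 0.2183 (without NSI replicate 2), in a range of -0.1725 to 0.2183 over single omissions. MBNL3 there ranged from -6e-04 (without siFOXA1 replicate 3) to 0.2895. The MBNL1 share in PC3 changed by 0.237 percentage points, and by -0.705 (without NSI replicate 2) to 0.785 over single omissions. Depth limits QKI in VCaP and ZEB1, ZEB2, SNAI2, CELF2, RBFOX1, VIM, GRHL2 and OVOL2 where their levels are near 0.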

Other observations

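Epithelial and mesenchymal genes were counted beside the regulators, as lists with no claim about their control. Of 12 epithelial genes in PC3, 2 rose and 4 fell, where 13.9% of all genes rose and 13.9% fell. CDH1, the epithelial cadherin, fell by 0.69 on the log2 scale (edgeR adjusted p = 0.00492), and ST14, a membrane protease of epithelia, fell by 0.71 (adjusted p = 0.00616). CLDN7, a tight junction claudin, rose (0.73, adjusted p = 0.00322). In VCaP, 4 of the 12 rose, KRT19 most (0.98, adjusted p = 0.000179), and 2 fell, where 22.5% of all genes rose and 23.3% fell, while CDH1 was not called (0.09, adjusted p = 0.328). Of 10 mesenchymal genes in PC3, 7 rose, where 13.9% of all genes did, with 2 further genes, VIM and FN1, at 0.13 (adjusted p = 0.291) and -0.04 (adjusted p = 0.902), and TGFBI at 1.26 (adjusted p = 0.0601). SPARC, a matrix-associated protein, rose there (1.06, adjusted p = 8.81e-05). In VCaP only 6 of the 10 were expressed enough to test. SPARC (1.97, adjusted p = 0.000481) rose from at most 1.66 CPM. VIM (1.37, adjusted p = 0.00906) rose too, but only from at most 0.424 CPM to at most 0.835 CPM. CDH2 (-1.68, adjusted p = 0.000259) and FN1 (-0.87, adjusted p = 0.00549) fell. The genes named here were chosen after their values were seen.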
